A study of Mus musculus with 4 samples.

Results

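The immunity-related GTPases (IRG proteins) were followed here as 7 genes, Irgm1, Irgm2, Igtp, Iigp1, Tgtp1, Tgtp2 and Ifi47, taken from a fixed list of symbols out of 41388 genes listed in the count tables. The list was chosen with earlier results of these data known. All 7 symbols matched a single listed gene each, and all 7 passed the filter on low counts. Total RNA was sequenced from Mnk3, a line of mouse cells with ILC3 character (ILC3 are tissue lymphocytes known for IL-22 and IL-17). The groups were untreated control cells (2 libraries) and cells kept some 16 h with the cytokines IL-23 and IL-1b, both at 10 ng/ml (2 libraries). The labels give no genotype difference between the groups. Whether the libraries within a group stem from independent cultures is not stated, and the p-values therefore reflect library-to-library spread that may be technical alone. The libraries are called control 1, control 2, stimulated 1 and stimulated 2, where those numbered 1 carry rep1 in their titles and those numbered 2 carry no number.

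IRG proteins are cytosolic GTPases that mouse cells make in large amounts after interferon, above all interferon gamma, and that protect against bacteria and protozoa living in vacuoles, such as Toxoplasma gondii. They fall into a regulatory group, Irgm1, Irgm2 and Igtp (the Irgm3 protein), which sits on the membranes of the cell's own organelles and keeps the others inactive there, and an effector group, here Iigp1 (Irga6), Tgtp1 and Tgtp2 (Irgb6) and Ifi47 (Irgd), which gathers on pathogen vacuoles and disrupts them. The groups differ in the GTP-binding loop, where the regulatory proteins carry methionine in place of a conserved lysine. Their genes are known targets of interferon-activated transcription factors, which bind short promoter elements named GAS and ISRE.

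Summed gene counts were 23047723 to 29078765 per library. All 10 ILC3 markers were tested, of which 2 rose, 5 fell and 3 did not pass, where 17.5% of all genes tested were higher and 18.3% lower. Levels are given as CPM, the gene count relative to the library size scaled by the TMM method, with mean ± SD over n = 2 libraries a group. T cell, B cell, stromal and epithelial marker lists had summed levels per kilobase of at most 18.5, 2.62, 0.88 and 0.761 in any library, against at least 1186.3 for the ILC3 list.

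Promoter sequences are shown first because most of the members share a short pair of elements near their RefSeq starts. RefSeq windows (build GRCm38.p6, 250 bases before to 50 after a gene's start) were matched by symbol for 6 of the 7 members and searched on both strands for the GAS letters TTCNNNGAA and the ISRE-type letters TTTC, any 2 bases and TTTC again. In Igtp, Irgm2, Tgtp1 and Tgtp2, and in the family gene Gm12185, a GAS match ended 2 bases before an ISRE-type match. Irgm1 had overlapping ISRE-type matches and no GAS match. The stretches below are 60 bases each, 5′ to 3′ on the gene's strand, with the matched bases in capitals.
Igtp: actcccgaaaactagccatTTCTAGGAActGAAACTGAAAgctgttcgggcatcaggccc
Irgm2: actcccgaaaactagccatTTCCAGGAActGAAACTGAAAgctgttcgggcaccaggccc
Tgtp1: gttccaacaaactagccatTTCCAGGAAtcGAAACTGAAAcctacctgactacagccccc
Tgtp2: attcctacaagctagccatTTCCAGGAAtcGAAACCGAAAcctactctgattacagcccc
Gm12185: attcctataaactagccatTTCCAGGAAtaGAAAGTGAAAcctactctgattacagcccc
Irgm1: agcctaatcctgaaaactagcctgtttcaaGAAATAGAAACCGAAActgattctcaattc
These stretches lie at chr11:58199492-58199551 on the plus strand for Igtp, chr11:58214883-58214942 on the plus strand for Irgm2, chr11:48992294-48992353 on the minus strand for Tgtp1, chr11:49064253-49064312 on the minus strand for Tgtp2, chr11:48927228-48927287 on the minus strand for Gm12185 and chr11:48871421-48871480 on the minus strand for Irgm1. The stretches of Irgm2, Tgtp1, Gm12185 and Irgm1 lie inside the genes as listed in the count tables. The listed 5′ ends of these genes are at 58199618, 48994172, 48992226 and 48871683, so the RefSeq starts used here are not the listed ones. The Igtp and Irgm2 stretches had the same base at 58 of 60 positions, and those of Tgtp2 and Gm12185 at 55 of 60. Tgtp1 and Tgtp2 were the same at 46 of 60, and Igtp and Tgtp2 at 42 of 60.

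Of the 6 member windows, 5 held an ISRE-type match and 4 a GAS match, and 4 held both. Windows on chromosome 18 were not searched. Of all 32851 promoter windows searched, 3.4% held an ISRE-type match, 8.3% a GAS match and 0.45% both. ISRE-type matches were as frequent in the windows of the guanylate-binding proteins (5 of 6, with both kinds in 2) and were found in 12 of 20 windows of antiviral interferon targets. Of 6 windows of other IRG family genes, 3 held an ISRE-type match, 2 a GAS match and 2 both. In the interferon gamma signalling list, 1 of 10 windows held an ISRE-type match, 3 a GAS match and 0 both. The pair at exactly this order and spacing, a search chosen after the sequences above had been read, occurred in 5 of the 32851 windows, and these 5 are the windows of Igtp, Irgm2, Tgtp1, Tgtp2 and Gm12185. The window of Ifi47 held neither set of letters. A match is a description of the letters and not a site shown to be bound. No window was used for Iigp1, Gm4951, Gm4841 or F830016B08Rik, which lie on chromosome 18.

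IL-1b and IL-23 raised the transcripts of all 7 IRG genes, and the 4 effector genes went from near silence to clear expression. After stimulation all 7 were higher with edgeR (adjusted p under 0.05), where 17.5% of the 13838 genes tested were higher and 35.8% changed in either direction. The median change of the 7 was 4.78 on the log2 scale of stimulated over control, against -0.02 over all genes tested. In all 7, both stimulated libraries lay above both controls, which was so for 34.4% of all genes tested. Every change of the 7 was above 2 on the log2 scale, a size that 2.2% of the genes tested reached with an adjusted p under 0.05. The 4 effector genes, with 5 to 13 counts in each control library, passed the low-count filter through the stimulated libraries. Once tested, they could hardly be other than higher, so the shares of all genes are a weak yardstick for them. The members were also chosen with earlier results of these data known, so the comparison with all genes is description only. In bulk RNA, more cells with a transcript and more transcript per cell cannot be told apart.

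**Figure D1:**
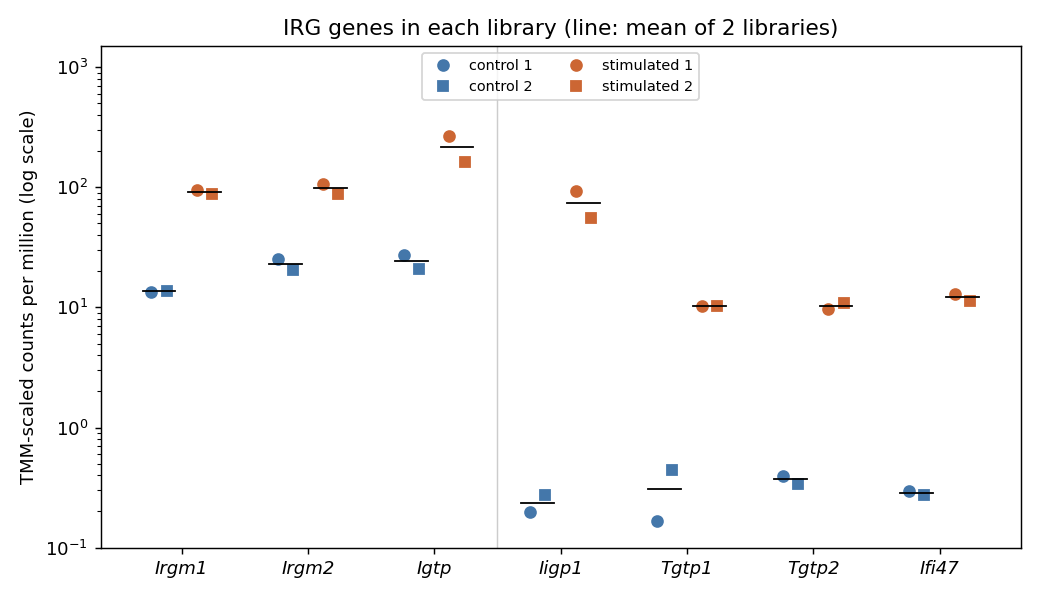
TMM-scaled CPM on a log axis for the 7 IRG genes in each of the 4 libraries, with a line at the mean of each group of 2. The regulatory genes left of the grey line start from 13.4 to 27.5 CPM in controls, and the effector genes right of it stay at or below 0.444 CPM in controls and reach 9.62 to 93.3 CPM after stimulation.

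Iigp1, an effector that loads onto the Toxoplasma vacuole, showed the steepest change of the 7. The gene, ENSMUSG00000054072 on chromosome 18, had only 6 and 8 counts in the control libraries but 2357 in stimulated 1 and 1277 in stimulated 2. These are 0.199 and 0.273 CPM in the controls and 93.3 and 55.9 CPM in the stimulated libraries. Both controls were close to 0 and both stimulated libraries far above them, with stimulated 1 the higher by 1.67-fold. The change was 8.28 ± 0.40 (log2 ± SE), a 310.5-fold rise (edgeR adjusted p = 0.00017), and ranked 16 among the 2417 genes that were higher. With 14 control counts in all, the ratio of summed counts scaled for library size was 320.6 with an exact 95% counting interval of 190.8 to 587, which covers counting error only.

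Tgtp1 and Tgtp2 encode the effector Irgb6, and they are near-identical copies. Tgtp1 (ENSMUSG00000078922) lies at chr11:48985327-48994172 and Tgtp2 (ENSMUSG00000078921) at chr11:49057194-49064206, both on the minus strand. Tgtp1 had 5 and 13 counts without the cytokines, against 259 and 233 with them. Tgtp2 had 12 and 10 counts without and 243 and 250 with the cytokines. The stimulated libraries of each gene were nearly level in CPM, at 10.3 and 10.2 for Tgtp1 and at 9.62 and 10.9 for Tgtp2, while the controls of Tgtp1 were apart at 0.166 and 0.444 CPM. Tgtp1 rose by 5.05 ± 0.42 (edgeR adjusted p = 0.000498) and Tgtp2 by 4.78 ± 0.30 (edgeR adjusted p = 0.000239). The value of Tgtp1 depended on the control used, at 4.51 without control 1 and 5.90 without control 2. In this and every other fit without 1 library, the spread comes from the other group alone, and the single library left is assumed to vary like it. Of the 100-base stretches of Tgtp1 transcripts in GENCODE M21, 70.3% also occur in Tgtp2, and 76.8% of those of Tgtp2 occur in Tgtp1. The split between the 2 genes is uncertain, since no source used here says how reads matching both copies were counted. Their summed counts, 17 and 23 before against 502 and 483 after stimulation, gave a rise of 4.92 ± 0.26 (edgeR adjusted p = 0.000164).

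Ifi47, which encodes the effector Irgd, was also close to silent in untreated cells. It is ENSMUSG00000078920, at chr11:49076587-49096974 on the plus strand. Control libraries held 9 and 8 counts of it and stimulated libraries 329 and 256, or 0.299 and 0.273 CPM against 13 and 11.2 CPM. The libraries of each group were close together and the groups did not overlap. Ifi47 rose by 5.38 ± 0.30, a 41.7-fold change (edgeR adjusted p = 0.000193) with a counting interval of 26.3 to 73.5 around a count ratio of 42.5. The exons listed for Ifi47 share 111 bases (4.8% of its exon bases) with those of the olfactory receptor gene Olfr56 on the same strand, which had 0 counts in all 4 libraries.

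The regulatory genes rose as well, from a level that was already measurable in untreated cells. Igtp, whose protein controls the loading of effectors and sits on the endoplasmic reticulum and lipid droplets, is ENSMUSG00000078853 at chr11:58199556-58207591 on the plus strand. It had 27.5 and 21 CPM in the controls and 266.6 and 162.7 CPM in the stimulated libraries. Stimulated 1 was 1.64-fold above stimulated 2, and both lay far above the controls. Igtp rose by 3.14 ± 0.29, an 8.84-fold change (edgeR adjusted p = 0.00098).

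Irgm1, the member needed for resistance to mycobacteria and for the survival of lymphocytes after interferon exposure in mice, is ENSMUSG00000046879 at chr11:48861968-48871683 on the minus strand. It had 13.4 and 13.7 CPM in the controls and 94.8 and 87.6 CPM in the stimulated libraries, with little spread in either group. Irgm1 rose by 2.75 ± 0.15, a 6.71-fold change (edgeR adjusted p = 0.00017). Irgm2, a Golgi-associated regulator, is ENSMUSG00000069874 at chr11:58199618-58222779 on the plus strand. It had 25.2 and 20.5 CPM in the controls and 107.3 and 88.2 CPM in the stimulated libraries, again without overlap. Irgm2 had the smallest change of the 7, at 2.10 ± 0.18 or 4.27-fold (edgeR adjusted p = 0.000526). The listed exons of Irgm2 and Igtp share 162 bases on the same strand, 4.5% of the Irgm2 and 8.0% of the Igtp exon bases, so reads there belong to either gene.

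Among the listed members, the make-up of the transcripts shifted towards the effectors. Levels of different genes were compared as TMM-scaled CPM per kilobase of listed exon length. In controls the order was Igtp (12 ± 2.28), Irgm2 (6.32 ± 0.916) and Irgm1 (2.34 ± 0.0357), followed by Tgtp2 (0.126 ± 0.0136), Ifi47 (0.123 ± 0.00774), Tgtp1 (0.0952 ± 0.0614) and Iigp1 (0.0757 ± 0.0168), each as mean ± SD with n = 2. The 3 regulatory genes were separated from one another by more than their spread, and the 4 effector genes were not all separated, since Tgtp2 and Ifi47 overlapped and Tgtp1 spanned all of them. In stimulated cells Igtp stayed first at 106.1 ± 36.3. Irgm2 (27.0 ± 3.73) and Iigp1 (23.9 ± 8.48) came next with overlapping libraries, then Irgm1 (15.7 ± 0.874), Ifi47 (5.23 ± 0.555), Tgtp2 (3.50 ± 0.318) and Tgtp1 (3.19 ± 0.012). Iigp1 thus moved from the lowest mean in controls to a level not separated from that of Irgm2. In control 1, Tgtp1 (0.0518) lay below Iigp1 (0.0638).

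The 4 listed effector genes made up 1.63% and 2.44% of the listed members' per-length sum in the control libraries, against 19.1% and 19.8% after stimulation. That sum leaves out other family genes, among them Gm12250, the locus of the effector Irgb10, with a listed exon length of 1274 bases. Gm12250 had 2.52 and 2.63 CPM in controls, above every listed effector, and 58.7 and 36.5 CPM after stimulation. The shares thus depend on the choice of members, and shares with Gm12250 included were not computed. Igtp alone held 58.5% and 55.0% of the sum in control cells, and 60% and 53.8% after stimulation. Irgm2 held 29.9% and 30% of it in control cells, and 13.5% and 16.3% after stimulation. Iigp1 contributed 0.274% and 0.464% before stimulation against 13.6% and 12% after it. The log2 ratio of the effector to the regulatory sum was -5.62 ± 0.42 in controls and -2.05 ± 0.05 in stimulated cells, a difference of 3.57. The exact two-sided permutation p over the 4 libraries was 0.333, which is the smallest that 2 against 2 allows, so the shift cannot pass a threshold of 0.05 in this design. The sum of the listed members itself went from 23.3 and 18.9 to 219.8 and 149.6 CPM per kilobase.

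**Figure D2:**
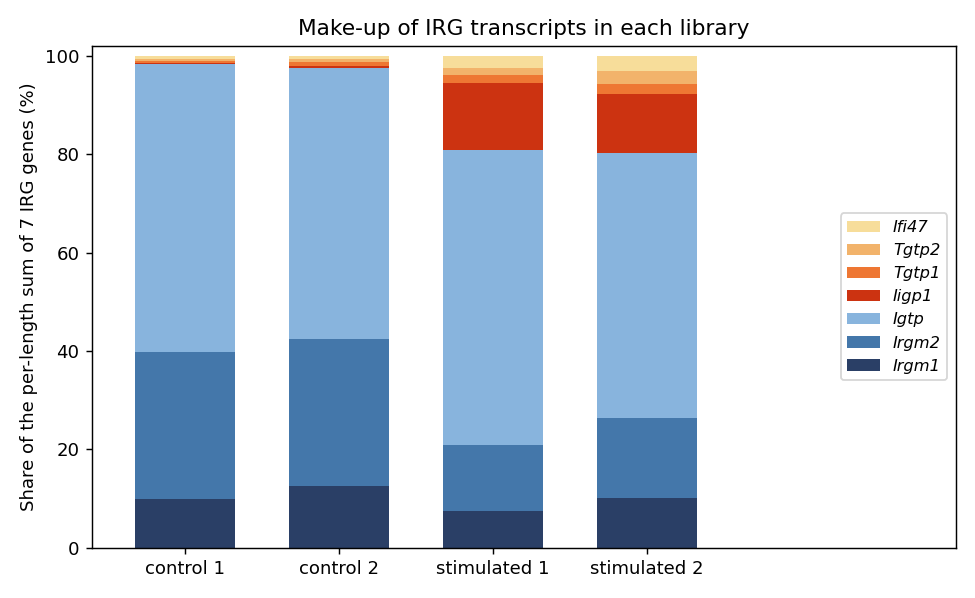
Share of each gene in the summed per-length level of the 7 IRG genes, in percent, for each library. Blue colours are the regulatory genes and red to yellow colours the effector genes, which take 1.63% and 2.44% before stimulation against 19.1% and 19.8% after it.

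Other genes of the IRG family, from a list of 10, moved mostly with the 7. Of the 7 tested, 5 rose, 1 fell and 1 did not pass, with a median change of 4.21. The shares were 71.4% higher and 14.3% lower, against 17.5% and 18.3% of all genes tested. Gm4951, Gm12185 and F830016B08Rik had at most 12 counts in any control library and passed the low-count filter through the stimulated libraries, so their direction was nearly fixed. Gm4951, which like Iigp1 lies on chromosome 18, had 0.166 and 0.205 CPM in the controls and 26.1 and 21.7 CPM in the stimulated libraries, a rise of 6.98 ± 0.29 (edgeR adjusted p = 0.000134). Gm4841, on the same chromosome, went from 1.73 ± 0.845 to 44.6 ± 4.71 CPM, a rise of 4.69 ± 0.33 (edgeR adjusted p = 0.000423). Gm12250, the locus of the effector Irgb10, which acts on bacterial membranes, went from 2.58 ± 0.0767 to 47.6 ± 15.7 CPM, a rise of 4.21 ± 0.28 (edgeR adjusted p = 0.000272). GENCODE M21 lists Gm12250 as a processed pseudogene, and its listed exon length is 1274 bases.

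Gm12185, a Tgtp-like gene that overlaps Tgtp1, rose by 6.08 ± 0.53 (edgeR adjusted p = 0.000606), and by 5.30 without control 1 and 7.77 without control 2. Its exons overlap those of Tgtp1 over 4.0% of their bases. F830016B08Rik rose by 3.47 ± 0.73 (edgeR adjusted p = 0.0135), and by 2.58 without control 1 and 6.03 without control 2, since its controls had 1 and 12 counts. Irgq, a divergent family member, moved the other way, from 65.1 and 61.5 CPM to 44.0 and 42.6 CPM (-0.55 ± 0.13, edgeR adjusted p = 0.0197). That fall no longer passed when control 1 (0.0827), stimulated 1 (0.0857) or stimulated 2 (0.115) was left out. 9930111J21Rik2, with 5 and 25 counts before and 10 and 21 after stimulation, had 0.36 ± 0.79 and did not pass. Gm5431, 9930111J21Rik1 and Irgc1 had at most 9 counts in any library and were not tested.

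**Figure D3:**
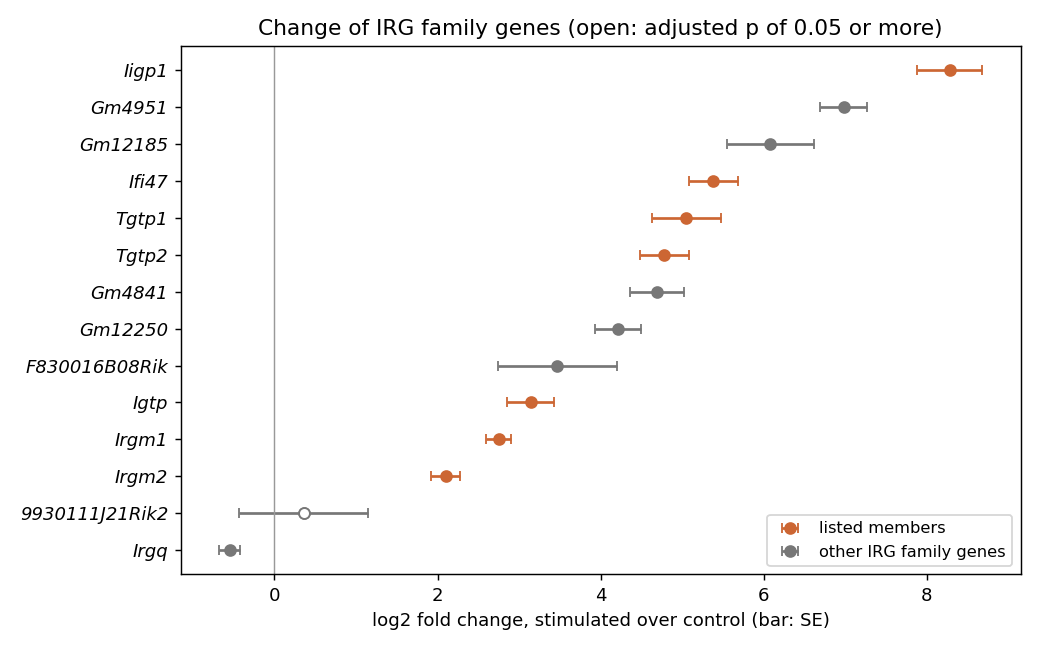
Change of the 14 tested IRG family genes on the log2 scale of stimulated over control, with SE bars; orange points are the 7 listed members, grey points other family genes, and an open point did not pass. Of the 14, 12 lie above 2, from Irgm2 at 2.10 to Iigp1 at 8.28, and Irgq lies below 0.

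Of the 7 members, 6 lie in a pair of clusters on chromosome 11. The first, from 48861968 to 49096974 (235.0 kb), holds Irgm1, Tgtp1, Tgtp2, Ifi47 and 4 other family genes. Within 100 kb of it, 4 genes outside the family were tested and 2 of them rose, where 17.5% of all genes tested were higher: Psme2b, a copy of the proteasome activator gene Psme2 inside the cluster, by 2.06 ± 0.37 (edgeR adjusted p = 0.00608) and Rack1 by 0.81 ± 0.22 (edgeR adjusted p = 0.0286). The second, from 58187739 to 58222779 (35 kb), holds Gm12250, Igtp and Irgm2. Of 5 tested genes around it, 2 rose. Gemin5, which encodes an RNA-binding protein of the SMN complex, rose by 1.55 ± 0.18 (edgeR adjusted p = 0.0013) and Mrpl22 by 0.98 ± 0.24 (edgeR adjusted p = 0.0184). The calls of Rack1 and Mrpl22 ended without control 2 (0.0935 and 0.062) or stimulated 1 (0.114 and 0.0945). The median change of the tested neighbours was 0.49 at the first cluster and -0.09 at the second, below that of every tested family gene there except 9930111J21Rik2 at the first. These neighbours were picked by position and named after their values were seen.

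**Figure D4:**
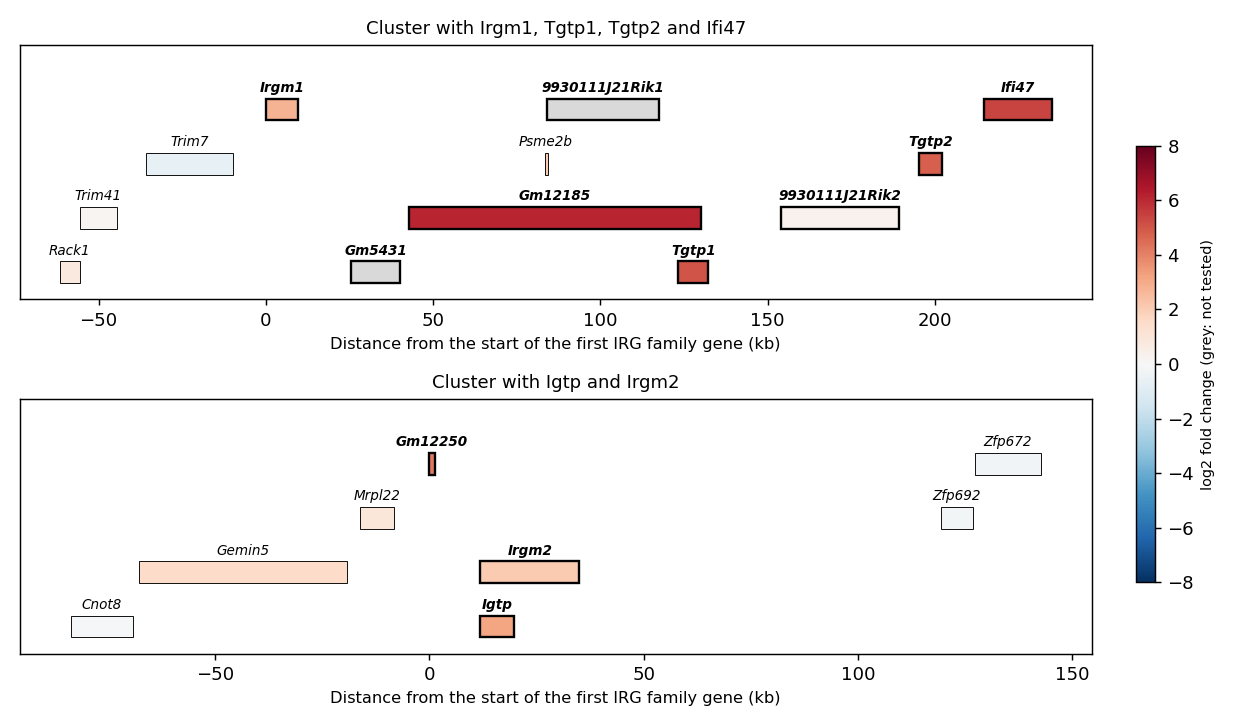
Genes of the chromosome 11 clusters by distance in kb from the start of the first family gene, coloured by log2 fold change; bold names with thick borders are IRG family genes and the others are tested neighbours within 100 kb. The reddest boxes are Gm12185, Ifi47, Tgtp1, Tgtp2 and Gm12250, grey boxes were not tested, and among the neighbours Psme2b at 2.06 and Gemin5 at 1.55 are the highest.

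The genes of the interferon gamma pathway, which is known to drive IRG expression, were read from a list of 12. All 12 were tested, 7 rose, 2 fell and 3 did not pass, with a median change of 1.43. The shares were 58.3% higher and 16.7% lower, against 17.5% and 18.3% of all genes tested. The lower share was thus near that of all genes. Ifng, the cytokine gene itself, had 0.199 and 0.137 CPM in the controls and 80.8 and 67.9 CPM in the stimulated libraries (8.75 ± 0.26, edgeR adjusted p = 0.000103). Jak2, a kinase of the receptor, rose by 1.28 ± 0.16 and Irf1, a factor that binds ISRE sequences, by 1.61 ± 0.20. Nlrc5, the transactivator of MHC class I genes, rose by 2.33 ± 0.17 and Socs1, the feedback inhibitor of the receptor kinases, by 3.42 ± 0.19. Irf8 rose by 1.57 ± 0.31, a call that ended without stimulated 1 (0.0842) or stimulated 2 (0.0725) and a change of 2.12 without control 2. The receptor chain gene Ifngr1 fell by 1.52 ± 0.16 and Ciita, the transactivator of MHC class II genes, by 1.12 ± 0.15 on the log2 scale. Ifngr2 had 0.58 ± 0.24, Ptpn2 0.46 ± 0.15 and Jak1 -0.12 ± 0.14, and none of them passed. Ifngr2 passed in 3 other fits, among them that without stimulated 2 (0.92), and Ptpn2 in 6, among them DESeq2. The part of Ifng and its pathway in the rise of the IRG genes was not tested.

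Guanylate-binding proteins, the larger GTPases that act beside IRG proteins on pathogen vacuoles, came from a list of 11. Of these, 8 were found by symbol in the count tables. All 8 were tested and rose, against 17.5% of all genes tested, with a median change of 1.90. Gbp3 rose by 4.27 ± 0.25, Gbp2 by 2.37 ± 0.23 and Gbp4 by 1.45 ± 0.20. Without control 1, 7 of the 8 passed. Among 14 tested genes of 16 in another list of interferon gamma targets, 10 rose and 4 did not pass, with a median of 1.20. The share that rose was 71.4%, against 17.5% of all genes tested. The chemokine genes Cxcl9 and Cxcl10 rose by 6.58 ± 0.45 and 3.71 ± 0.23, and the peptide transporter gene Tap1 by 1.80 ± 0.16. H2-D1 and B2m had 0.27 ± 0.19 and 0.38 ± 0.17 and did not pass, with B2m passing in DESeq2 (adjusted p = 0.0381) and with the replicate block (adjusted p = 0.0243).

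Genes known for the antiviral response to type I interferon came from a list of 23. Of 18 tested, 5 rose, 2 fell and 11 did not pass, with a median of 0.30. The share that rose was 27.8% against the 17.5% of all genes, and the share that fell 11.1% against 18.3%. Zbp1, a sensor of nucleic acids, rose by 2.96 ± 0.31, Ifi35 by 1.03 ± 0.13 and the RNA sensor gene Ifih1 by 0.85 ± 0.17, while Trim30a and Eif2ak2 had 0.41 ± 0.20 and 0.44 ± 0.17 and did not pass. With the replicate block both passed (edgeR adjusted p = 0.00102 and 0.000398), and Eif2ak2 also with no low-count filter (0.0332). Of 8 tested genes of 9 in type I interferon signalling, 4 rose, 1 fell and 3 did not pass. Irf9, a subunit of ISGF3, rose by 0.74 ± 0.13 and Usp18, the feedback protease, by 1.11 ± 0.23. Tyk2 fell by 0.58 ± 0.14, a call that ended without control 2 (0.0706) or stimulated 1 (0.118), and Irf3 and Ifnar1 had -0.24 ± 0.13 and 0.01 ± 0.13 and did not pass. The difference between these lists and the IRG genes was not tested.

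Another list was built around the ubiquitin-like conjugation system of autophagy, which is needed to place IRG proteins on vacuoles. It also held Sqstm1 and Traf6, which are not parts of that system. The list had 0 members that rose among 12 tested with edgeR, 0 at an unadjusted p under 0.05 and 0 with DESeq2 or limma-voom. With no low-count filter 1 rose, and with the replicate block 2 rose. Of the 12, 3 fell and 9 did not pass, with a median of -0.30, where 17.5% of all genes were higher and 18.3% lower. Map1lc3b, an LC3 gene, fell by 0.97 ± 0.14, Atg7, the activating enzyme, by 0.89 ± 0.14 and Gabarapl1 by 0.58 ± 0.13 on the log2 scale. The call of Gabarapl1 ended without control 2 (0.0513), stimulated 1 (0.0691) or stimulated 2 (0.0736). The abundant Sqstm1 and Gabarap had -0.35 ± 0.15 and -0.10 ± 0.15 and did not pass, with Sqstm1 passing with the replicate block (edgeR adjusted p = 0.0135).

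Macrophages also express IRG genes, so myeloid markers were read beside these results. Of 7 markers, Lyz2 and Cd14 had 0 counts in all 4 libraries, and the summed level per kilobase was 1.85 and 2.28 before against 3.59 and 5.28 after stimulation. Adgre1, which encodes F4/80, rose from 0.0664 and 0 CPM to 1.74 and 8.19 CPM (edgeR adjusted p = 0.0161, not passing without control 1 or control 2 at 0.171 and 0.212), and Mpeg1 rose from 1.06 and 1.16 to 5.78 and 2.63 CPM (edgeR adjusted p = 0.0142, with 0.0566 without stimulated 1). Csf1r, Cd68 and Itgam did not pass. Between the stimulated libraries, Adgre1 and the myeloid sum were higher in stimulated 2, and Mpeg1 and the IRG sum in stimulated 1. The part of these markers in the IRG result was not tested.

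The genes outside the family whose pattern lay nearest to the median centred profile of the 7 members, by Euclidean distance of log2 CPM over 4 libraries among 9458 candidates, were Zeb2 (distance 0.16), Serpinb9c (0.25), Tnip3 (0.34), Ubtd2 (0.37) and Cish (0.38). Zeb2, a zinc finger factor of lymphocyte differentiation, had 10.6 and 11.1 CPM in the controls and 143.9 and 151.4 CPM in the stimulated libraries. Cish, a cytokine-induced inhibitor of cytokine signalling, had 2.92 and 2.29 CPM in the controls and 43.0 and 32.8 CPM in the stimulated libraries. With 4 libraries the profile is mainly the size of the change, and nothing further was read from it.

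The rise of the 7 members held in every fit tried, which comprised other scalings, filters and tools, a stricter threshold, a replicate block, and the omission of single libraries. Igtp ranged from 2.74 to 3.48, Iigp1 from 7.86 to 8.63, Irgm2 from 1.95 to 2.26 and Ifi47 from 5.27 to 5.51, and each of these extremes came from leaving out 1 library. The largest adjusted p of any member in any of these fits was 0.00227, for Igtp.

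**Figure D5:**
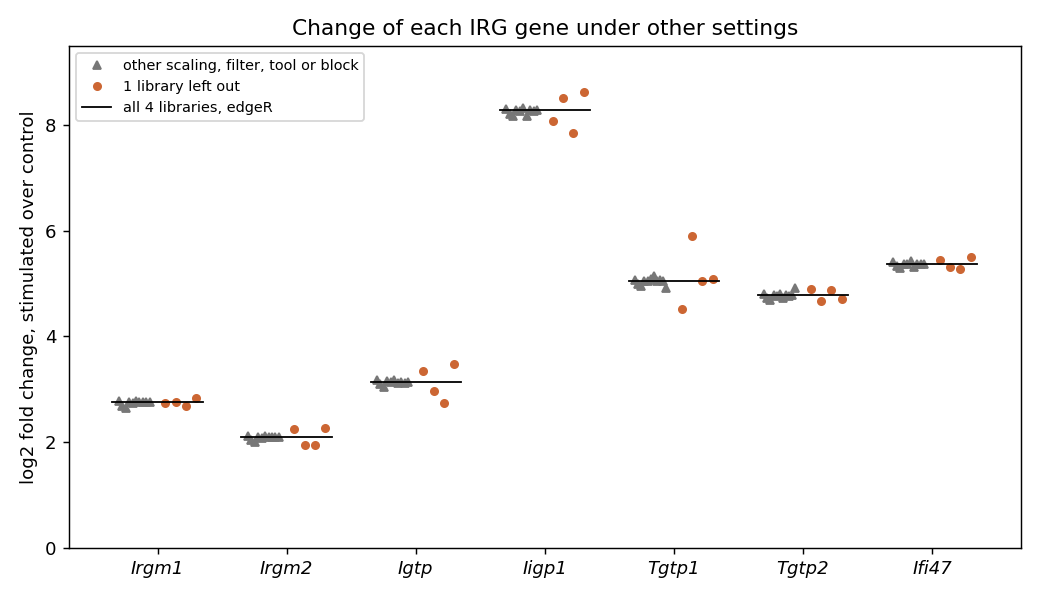
Log2 fold change of each IRG gene with all 4 libraries in edgeR (line), under other scalings, filters, tools or a block (triangles) and with 1 library left out (dots). Dots spread more than triangles for every gene but Tgtp2, and most for Tgtp1, which ran from 4.51 without control 1 to 5.90 without control 2.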

How the data were processed

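The submitters' processing notes name STAR, Subread and featureCounts. Their versions, the genome build, the annotation, strand use and the handling of multi-mapping reads are not given in any source used. Per the file headers, the deposited count is a whole number per gene over listed exons, CPM by the authors is that count relative to the library total, and RPKM by the authors is that CPM per kilobase; both were checked on the values. Identifiers were matched to GENCODE M21 (40340 of 41388, 76.1% with the same start and end). Coordinates are those of the tables, which for the chromosome 11 members are the same as in M21 (GRCm38) except at the end of Irgm2, and promoter windows those of RefSeq, without chromosome 18.

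Counts were tested with edgeR 4.0.16 (quasi-likelihood, robust, filterByExpr, TMM, treatment as the only term; R 4.3.3, limma 3.58.1, DESeq2 1.42.0 as alternatives), with Benjamini-Hochberg adjustment over 13838 genes and a threshold of 0.05, and the code was tested on simulated data. The SE is the absolute change over the square root of F, an approximation. The common biological coefficient of variation was 18.4%. TMM centres the changes, which hides any global shift. Libraries of a group differed beyond counting error (chi-square per degree of freedom 71.1 for controls and 42.6 for stimulated).

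Protein features were planned and not computed. The members and the 14 lists were chosen with earlier results of these data known. Named genes were all members, all other IRG and interferon gamma signalling genes, of each other list 3 genes past the threshold (lowest adjusted p) and 2 not past it (highest level), and the 5 nearest profiles with a mean of at least 5 CPM (0.5 CPM added before log2). Some genes of the lists are not reported here.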

Additional observations from a re-analysis of the deposited data

How the results depend on the processing

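All 7 members were higher under each of the 14 alternatives run, and none was lower. Over all genes, 3986 were higher and 4000 lower with a replicate block for the kind of title, and 1244 and 1324 at an adjusted p under 0.01. Leaving out single libraries gave 1593 to 2001 higher and 1665 to 2035 lower. Total-count scaling moved the median of all genes by -0.092 and the share of called genes that were higher from 48.8% to 40.9%. The titles state no pairing of libraries. Differences between the libraries numbered 1 and 2 correlated at 0.558 between the groups, across genes, which are not independent replicates.

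With the block, the antiviral list had 8 higher and 5 lower and the autophagy list 2 higher and 6 lower. At the 0.01 threshold the other IRG genes had 0 lower, type I interferon signalling 1 higher and 0 lower, and the antiviral list 3 higher and 0 lower. With no low-count filter the autophagy list had 1 higher. With single libraries left out, other IRG genes had 0 to 1 lower, type I interferon signalling 2 to 4 higher and 0 to 1 lower, the antiviral list 0 to 2 lower, and the autophagy list 0 to 1 higher. The deposited RPKM gave 2.41 for Irgm1 in controls and 3.09 for Tgtp1 in stimulated cells, with no change in the order of those genes. Changes that did not pass and turned sign were 9930111J21Rik2 (-0.39 to 1.94 with single libraries left out, -0.33 without stimulated 2), Ifnar1 (-0.04 with upper quartile and -0.08 with total-count scaling, -0.07 to 0.12 with single libraries left out) and Gabarap (-0.22 to 0.04 with single libraries left out). The causes were not tested. Low control counts of the effector genes limit their folds, and 2 libraries a group limit every test.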
